A study of Mus musculus with 36 samples.

Results

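Messenger RNA of the embryonic mouse forebrain was followed for 9 genes of the postsynaptic scaffold in controls and in embryos with lowered *Chd8*. These genes were *Shank1*, *Shank2*, *Shank3*, *Dlgap1*, *Dlgap2*, *Dlgap3*, *Dlgap4*, *Dlg4* and *Homer1*. The genes were taken by name and not by a cut on measured values, but with earlier results of these data known. They are 9 of the 46603 genes in the count tables, and all 9 passed the filter on low counts at both stages. CHD8 is a chromatin remodeller whose gene is among those most often mutated in autism. At E12.5 the cortices of single C57Bl/6J embryos were sequenced, 3 each of *Chd8* +/+, +/-, neo/neo and neo/-. The neo allele carries a selection cassette in an intron that disturbs splicing, so that neo/neo embryos are hypomorphs with 2 neo alleles and neo/- embryos carry 1 neo and 1 null allele. At E10.5, 3 Ctrl and 3 cKO libraries of the same strain were made, each from 2 pooled embryos, also with cortex as the labelled tissue. The cKO embryos had *sox1-Cre* and 2 floxed alleles (*Chd8* f/f), with Cre driven from a gene of the early neural tube, so that cells outside the neural lineage keep *Chd8*. The Ctrl libraries were a mix of *Chd8* f/f and *Chd8* f/+ embryos.

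The postsynaptic density is the protein lattice under the membrane of excitatory synapses. DLG4, better known as PSD-95, binds glutamate receptors and adhesion proteins. The DLGAP proteins, also called GKAPs or SAPAPs, bind DLG4 and hand it on to the SHANK proteins, the large master scaffolds at the base of the lattice. HOMER1 cross-links SHANK to metabotropic glutamate receptors and the actin side. Synapses are scarce in the cortex at these stages, when the first young neurons leave the progenitor layer. Mutations of *SHANK3*, *SHANK2* and *DLG4* are known from neurodevelopmental disorders in people.

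The libraries held 38774591 to 61051667 counts at E12.5 and 49632937 to 68488879 at E10.5. *Chd8* itself was lower in every mutant library than in any control library of its stage. Its level was 237 ± 2.41 CPM (counts scaled to library size; mean ± SD, n = 3 in all groups) in +/+, 167 ± 3.04 in +/-, 209 ± 5.64 in neo/neo and 149 ± 8.38 in neo/-, and it was 171 ± 12 in Ctrl and 121 ± 4.78 in cKO. Gene counts include transcripts that are wrongly spliced or lack the deleted exon, so these values do not measure protein. They check only that each mutant group lay below its control. Every neo/neo library lay above every +/- library, although the study reported less CHD8 protein in neo/neo than in +/-. The dorsal telencephalic transcripts *Emx1* and *Lhx2* had means of 50.7 and 423 CPM in +/+ and of 29.6 and 265 CPM in Ctrl. Markers of the ventral telencephalon (472 to 654 CPM at E12.5) and of red blood cells (2865 to 6294 CPM) were present as well. *Xist* and Y-linked transcripts marked +/+ replicate 3, +/- replicate 1 and neo/neo replicates 1 and 2 as female and the other E12.5 libraries, with all 3 of neo/-, as male.

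A start site is listed for 6 of the genes in the RefSeq promoter table (build GRCm38.p6), which gives 250 bases before and 50 after each start, and these 6 genes have 10 entries. The count tables do not say which start was used. Entries for 4 genes are printed: *Dlg4* and *Dlgap4*, the members with the highest levels per length, *Shank3*, and *Homer1*, the member whose level differed least between stages. All 4 lie on the plus strand. Capitals mark matches on either strand to GGGCGG, the GC box, and to CCGGAAG, the core that ETS factors bind. The letters of these motifs do not overlap in any of the windows.
Dlgap4, chr2:156720715-156721014: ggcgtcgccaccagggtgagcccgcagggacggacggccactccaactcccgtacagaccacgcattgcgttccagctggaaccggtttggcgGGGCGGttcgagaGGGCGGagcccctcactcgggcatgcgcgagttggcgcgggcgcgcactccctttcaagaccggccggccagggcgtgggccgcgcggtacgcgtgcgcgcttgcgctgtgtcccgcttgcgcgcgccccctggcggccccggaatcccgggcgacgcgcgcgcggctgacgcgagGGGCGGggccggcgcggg
Shank3, chr15:89499358-89499657: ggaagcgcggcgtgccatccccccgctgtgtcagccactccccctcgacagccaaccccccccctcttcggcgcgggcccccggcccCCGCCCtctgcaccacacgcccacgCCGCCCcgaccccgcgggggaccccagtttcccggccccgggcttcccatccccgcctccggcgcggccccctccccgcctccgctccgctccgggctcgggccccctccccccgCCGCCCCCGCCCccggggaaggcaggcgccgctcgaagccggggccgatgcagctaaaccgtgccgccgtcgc
Dlg4, chr11:70018355-70018654: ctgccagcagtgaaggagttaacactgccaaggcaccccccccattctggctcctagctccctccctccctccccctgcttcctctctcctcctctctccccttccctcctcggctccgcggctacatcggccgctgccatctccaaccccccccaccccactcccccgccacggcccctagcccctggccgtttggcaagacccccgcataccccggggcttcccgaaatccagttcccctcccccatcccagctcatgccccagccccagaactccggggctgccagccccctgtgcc
Homer1, chr13:93303507-93303806: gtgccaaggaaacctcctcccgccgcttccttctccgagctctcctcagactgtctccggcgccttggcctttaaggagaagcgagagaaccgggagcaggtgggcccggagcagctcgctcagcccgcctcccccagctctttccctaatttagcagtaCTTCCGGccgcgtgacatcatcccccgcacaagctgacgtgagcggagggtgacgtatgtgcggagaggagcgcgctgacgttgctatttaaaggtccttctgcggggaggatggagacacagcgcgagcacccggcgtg

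The *Shank3* window was 81.0% G and C with 40 CpGs and 4 GC boxes, and the *Dlgap4* window was 76.3% G and C with 50 CpGs and 3 GC boxes. The median of the 32851 promoters listed was 52.7% and 7 CpGs, and 35.7% of them held a GC box. The *Dlg4* window shown held 12 CpGs and no match to either motif, whereas the third *Dlg4* start (chr11:70023732-70024031) held 2 GC boxes. The *Homer1* window held 26 CpGs and 1 match to the ETS core, which 8.86% of promoters have. A match is a run of letters, not a measured binding site.

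In the control cortex the scaffold genes spanned a wide range of levels. Per length of exon, in RPKM (fragments scaled to exon length and library size), *Dlg4* was highest at E12.5 with 27.9 ± 0.758 in +/+, followed by *Dlgap4* with 23.7 ± 0.155. A middle group held *Shank1* (7.20 ± 1.13), *Homer1* (5.15 ± 0.0918), *Shank3* (3.75 ± 0.188), *Dlgap3* (3.71 ± 0.162) and *Shank2* (3.32 ± 0.0618). *Dlgap2* (0.828 ± 0.0946) and *Dlgap1* (0.603 ± 0.0951) were lowest. Among neighbours in this order, only *Shank3* and *Dlgap3* had libraries whose RPKM ranges overlapped. Of the 4 DLGAP genes, *Dlgap4* thus stood far above the other 3.

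At E10.5 the order was different at the top. In Ctrl *Dlgap4* led with 11.3 ± 0.918 RPKM, then came *Dlg4* with 9.65 ± 0.363 and *Homer1* with 5.19 ± 0.504. *Shank3* stood at 2.05 ± 0.296, *Shank1* at 1.31 ± 0.167, *Shank2* at 0.861 ± 0.0838 and *Dlgap3* at 0.769 ± 0.126 RPKM, with overlapping libraries only for the last pair. *Dlgap2* (0.0995 ± 0.0478) and *Dlgap1* (0.0379 ± 0.00152) were near the limit of detection. *Dlgap1* had 27 to 41 counts and *Dlgap2* 17 to 51 counts in the E10.5 libraries.

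**Figure D1:**
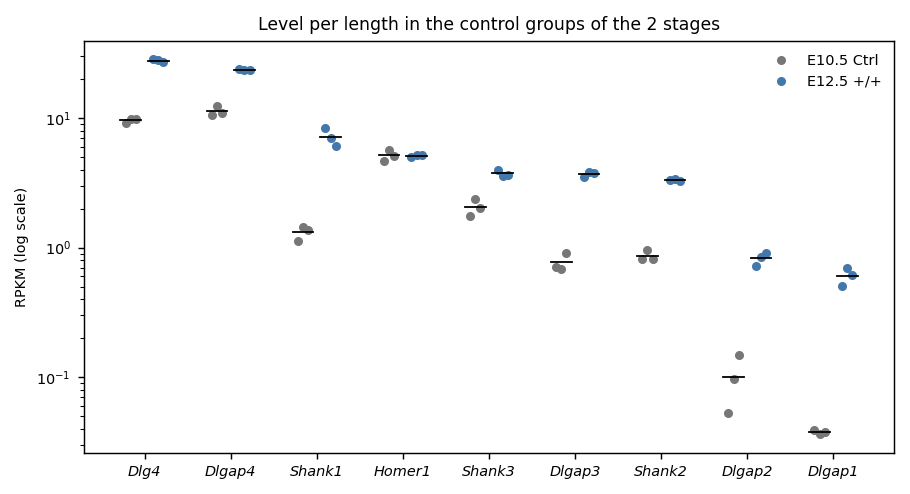
RPKM on a log axis for each of the 9 genes in the 3 E10.5 Ctrl libraries (grey) and the 3 E12.5 +/+ libraries (blue), with the mean as a bar. 8 of the 9 genes lie higher in every E12.5 library than in any E10.5 library, and *Homer1* lies at 5.19 and 5.15 RPKM. The share of all genes with such a pattern was not computed.

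Set side by side, the +/+ mean at E12.5 was 15.9 times the Ctrl mean at E10.5 for *Dlgap1*, 8.32 times for *Dlgap2*, 5.48 times for *Shank1* and 4.82 times for *Dlgap3*. The ratio was 3.85 for *Shank2*, 2.89 for *Dlg4*, 2.1 for *Dlgap4* and 1.83 for *Shank3*. *Homer1* had a ratio of 0.992 and overlapping libraries. Both stages were scaled in separate tables from separate sequencing, so stage, dissection and sequencing cannot be told apart and no test was made. How many of all genes were higher at E12.5 was not computed, so these ratios cannot be called particular to the scaffold genes. The 10 neuronal marker genes summed to 3537 to 4222 CPM in +/+ at E12.5 and 208 to 377 CPM in Ctrl at E10.5, where *Neurod6* had a count of 0 in every library. In bulk tissue, fewer cells of a type and less RNA per cell cannot be told apart.

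The first comparison asked whether loss of 1 *Chd8* allele changed the scaffold. None of the 9 genes passed the threshold in +/- against +/+ (edgeR's quasi-likelihood test, Benjamini-Hochberg adjustment over the 18810 genes tested). Of all genes tested, 0.0213% passed. DESeq2 called none of the 9 either, and 1 of them, *Dlgap2*, had an unadjusted p under 0.05, as did 1190 of the 18810 genes tested. *Dlgap2*, a linker of the receptor complex, stood at 4.46, 5.19 and 5.61 CPM in +/+ and at 4.35, 4.14 and 4.11 CPM in +/-. All 3 +/- libraries lay below the lowest +/+ library, and the log2 fold change was -0.28 ± 0.11 (SE; edgeR adjusted p = 0.747).

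*Shank3* was the other gene with no overlap, at 35.2, 32.1 and 32.7 CPM in +/+ and 31.6, 30.5 and 28.6 CPM in +/- (log2 fold change -0.14 ± 0.073, edgeR adjusted p = 0.799). Lower values without overlap were thus seen for 2 of 9 genes, against 5.90% of all genes tested. The remaining genes had log2 fold changes from -0.21 ± 0.18 for *Shank1* to 0.066 ± 0.052 for *Homer1*, and the median of the 9 was -0.069 against 0.0012 for all genes. Values for *Shank2* (0.0024 ± 0.064), *Dlgap3* (0.00078 ± 0.11) and *Dlgap1* (0.027 ± 0.26) lay near 0. For *Dlg4* the log2 difference was -0.079, with 95% bounds (normal, from the SE) of -0.19 and 0.033.

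**Figure D2:**
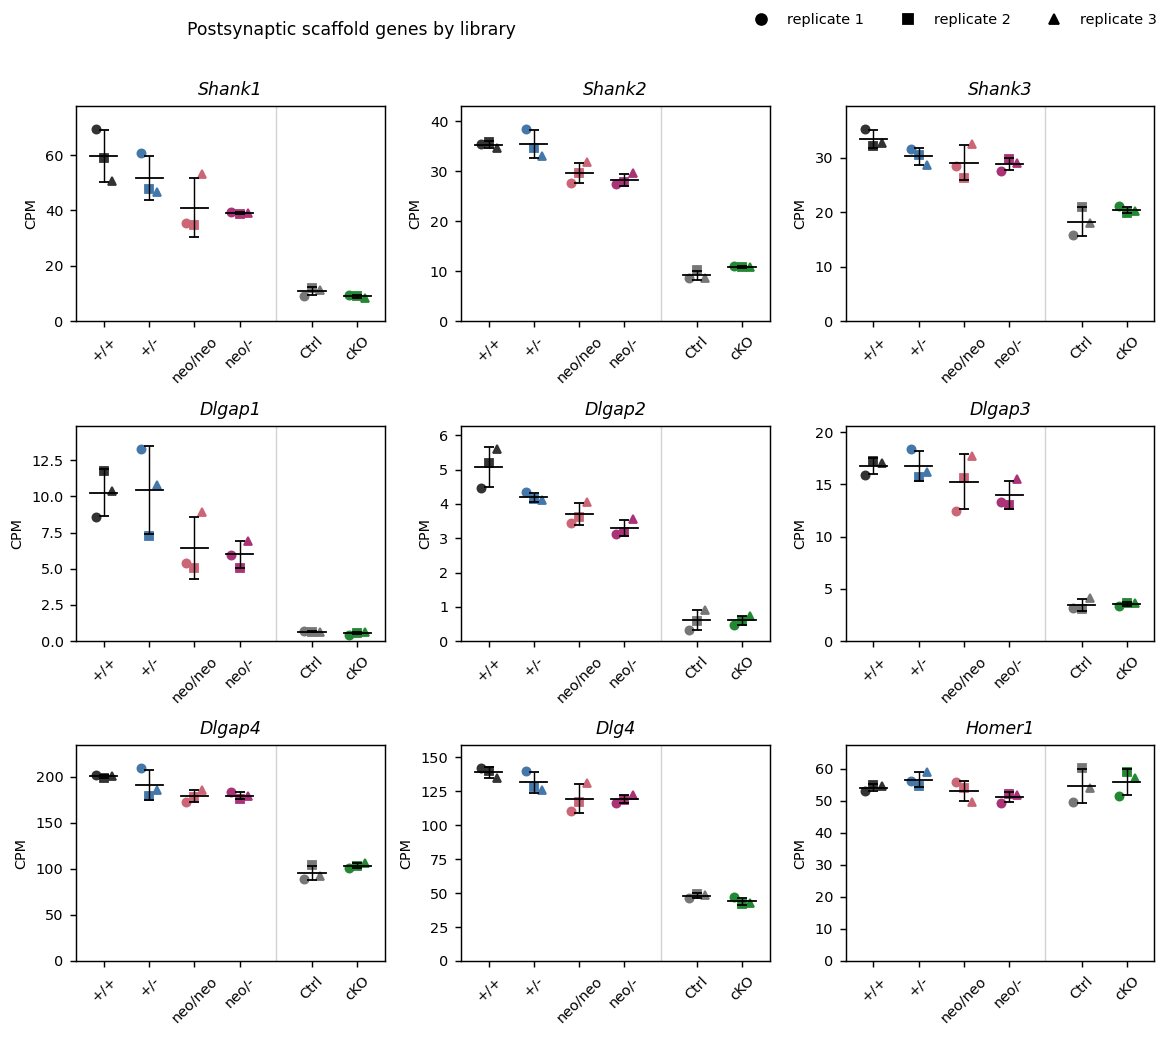
CPM of each scaffold gene in every library, one panel per gene with its axis starting at 0, E12.5 genotypes on the left and E10.5 groups on the right of the grey line. Symbols give the replicate number, long bars the mean and whiskers the SD (n = 3), and in neo/- all 3 libraries of each gene lie below all 3 +/+ libraries.

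In the mild hypomorph, *Shank2*, *Dlgap2* and *Dlg4* fell and no scaffold gene rose. That is 3 of 9 genes, where 8.16% of all genes passed the threshold in this comparison and 4.45% passed as lower. All 9 log2 fold changes were negative, with a median of -0.22 against 0.0053 for all genes. Lower values without overlap between the groups were seen for 4 of the 9 (*Shank2*, *Dlgap2*, *Dlgap4* and *Dlg4*) and for 13.5% of all genes.

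*Dlg4*, whose product anchors receptors, stood at 142, 140 and 135 CPM in +/+ and at 110, 117 and 131 CPM in neo/neo. It fell by 14% (log2 fold change -0.22 ± 0.057, edgeR adjusted p = 0.0339). *Shank2*, a master scaffold of the SHANK family, stood at 35.4, 36.0 and 34.7 CPM in +/+ and at 27.7, 29.6 and 31.8 CPM in neo/neo. It fell by 15.9% (-0.25 ± 0.064, adjusted p = 0.0299). *Dlgap2*, at 3.45, 3.62 and 4.05 CPM in neo/neo against the +/+ values given above, fell by 27% (-0.45 ± 0.11, adjusted p = 0.0258). In each of these 3 genes, neo/neo replicate 3 lay closest to the +/+ libraries.

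Larger but more scattered differences were measured for *Shank1* and *Dlgap1*. *Shank1* was at 69.5, 58.8 and 50.8 CPM in +/+ and at 35.4, 34.6 and 53.2 CPM in neo/neo, so that replicate 3 lay inside the +/+ range (log2 fold change -0.54 ± 0.18, edgeR adjusted p = 0.0979). *Dlgap1* was at 8.55, 11.8 and 10.4 CPM in +/+ and at 5.36, 5.06 and 8.91 CPM in neo/neo (-0.66 ± 0.26, adjusted p = 0.149), again with replicate 3 inside the range. *Dlgap4* was at 202, 199 and 201 CPM in +/+ and 173, 178 and 186 CPM in neo/neo (-0.16 ± 0.051, adjusted p = 0.0642). These 3 genes did not pass the threshold.

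The other 3 scaffold genes differed less. *Shank3* had a log2 fold change of -0.20 ± 0.073 (edgeR adjusted p = 0.102), *Dlgap3* of -0.13 ± 0.11 (adjusted p = 0.506) and *Homer1* of -0.029 ± 0.052 (adjusted p = 0.775). *Homer1* was at 53.0, 54.7 and 54.5 CPM in +/+ and at 55.7, 53.8 and 49.4 CPM in neo/neo, where replicate 3 was the lowest of its group, opposite to the 8 other genes.

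The count of 3 genes depended on single libraries. Without neo/neo replicate 3 it was 7, with *Shank1*, *Shank3*, *Dlgap1* and *Dlgap4* added, and it was 0 without neo/neo replicate 1, neo/neo replicate 2, +/+ replicate 2 or +/+ replicate 3, and 1 without +/+ replicate 1. Calls over all genes also shifted, from 1534 of 18810 to 2605 of 19045 without neo/neo replicate 3. They numbered 565 of 19095 without neo/neo replicate 1, 435 of 19042 without neo/neo replicate 2 and 564 of 19096 without +/+ replicate 2. They were 800 of 19076 without +/+ replicate 3 and 1280 of 19010 without +/+ replicate 1. Replicate 3 was the highest of the neo/neo group for 8 of the 9 genes. It was also the male neo/neo library and the one with the highest neuronal marker sum, 3406 CPM against 2895 and 3083. With sex-linked expression as a covariate, *Dlgap2* alone remained past the threshold, and with only the +/+ and neo/neo libraries in the fit none did. With GC and length trends removed *Shank2* missed it (adjusted p = 0.0535) and *Shank3* passed (0.0355), the first run alone left out *Dlgap2* (0.0557), and in the second run alone all 3 missed it and *Dlgap1* passed (0.0495).

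In the severe hypomorph the same genes, *Shank2*, *Dlgap2* and *Dlg4*, fell, and again none rose. The share of 3 in 9 stands beside 11.5% of all genes that passed and 5.99% that passed as lower. The neo/- and neo/neo comparisons share their +/+ libraries, so their calls are not independent. All 9 scaffold genes were lower in every neo/- library than in any +/+ library, a pattern that 16.9% of all genes showed. The median log2 fold change of the 9 was -0.26 against 0.0011 for all genes.

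*Dlgap2* had 3.14, 3.20 and 3.55 CPM in neo/- and fell by 35.2% (log2 fold change -0.63 ± 0.11, edgeR adjusted p = 0.00338). *Shank2* had 27.4, 27.9 and 29.6 CPM and fell by 19.9% (-0.32 ± 0.064, adjusted p = 0.00594). *Dlg4* had 116, 119 and 122 CPM and fell by 14.1% (-0.22 ± 0.057, adjusted p = 0.0249). The neo/- libraries lay closer together than the neo/neo libraries for all 3 of these genes.

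*Shank1* had 39.6, 38.8 and 39.1 CPM in neo/-, a log2 fold change of -0.61 ± 0.18 with an edgeR adjusted p of 0.0601. *Dlgap1* had 5.97, 5.07 and 6.92 CPM (-0.77 ± 0.26, adjusted p = 0.0912), the largest fold change of the 9 genes and the widest error. *Dlgap4* had 183, 177 and 180 CPM (-0.16 ± 0.051, adjusted p = 0.0592) and *Shank3* had 27.6, 29.8 and 29 CPM (-0.21 ± 0.073, adjusted p = 0.0744). *Dlgap3* (-0.26 ± 0.11, adjusted p = 0.15) and *Homer1* (-0.083 ± 0.052, adjusted p = 0.342) were farthest from the threshold. The bounds for *Homer1* were -0.184 and 0.0189. The lower one lay above the point estimates of *Shank2*, *Dlgap2* and *Dlg4*, but not above that of *Dlgap4*. The bounds for *Dlg4* (-0.332 and -0.107) overlapped those for *Homer1*. The upper bounds for *Shank2* (-0.195) and *Dlgap2* (-0.404) lay below them. Whether *Homer1* differed from the other scaffold genes was not tested.

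*Shank2* and *Dlgap2* passed the threshold in neo/- under all 22 alternatives tried. *Dlg4* passed in 18 of the 22 and missed it without +/+ replicate 1, +/+ replicate 2, neo/- replicate 1 or neo/- replicate 2 (adjusted p 0.0652 to 0.0920). With only the +/+ and neo/- libraries in the fit 8 of the 9 genes passed, all but *Homer1*, and DESeq2 called 7. Over all genes, 2687 of 18268 passed with only these libraries and 2603 of 14366 with DESeq2. Without neo/neo replicate 3, a library of neither group compared, 7 scaffold genes and 2574 of all 19045 genes passed.

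**Figure D3:**
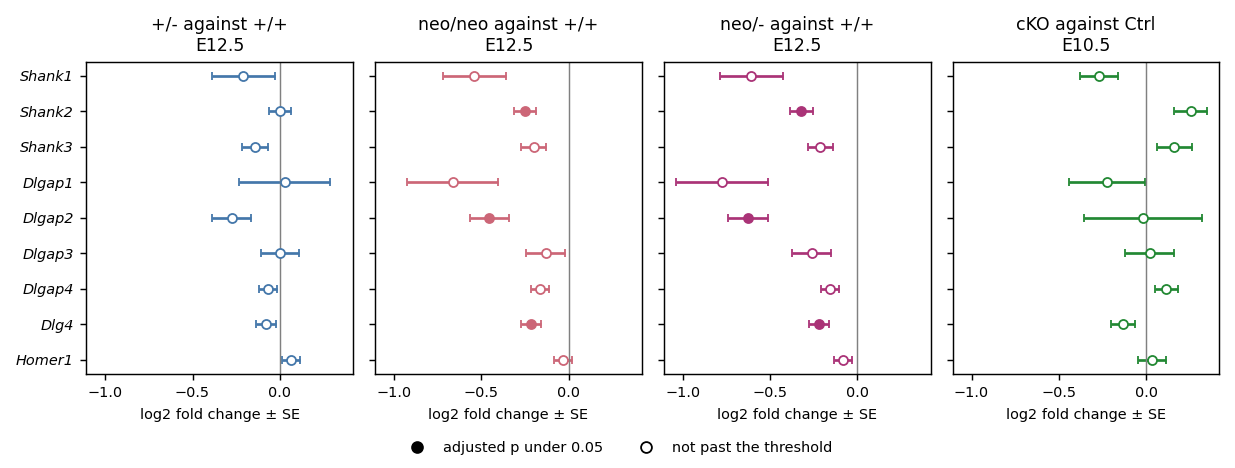
Log2 fold change ± SE of each scaffold gene in the 3 E12.5 comparisons against +/+ and in cKO against Ctrl at E10.5. Filled points had an adjusted p under 0.05, which held for *Shank2*, *Dlgap2* and *Dlg4* in both hypomorphs and for no gene in +/- or cKO.

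Against +/- embryos instead of +/+, *Shank2* fell in both hypomorphs and no other scaffold gene passed the threshold. Its +/- libraries held 38.5, 34.6 and 33.2 CPM, above every hypomorph library. The log2 fold change was -0.25 ± 0.064 in neo/neo (edgeR adjusted p = 0.0389) and -0.32 ± 0.064 in neo/- (adjusted p = 0.0124). Of all genes, 5.28% and 5.43% passed in these comparisons. Same-numbered +/- and neo/neo libraries deviated together, and with the replicate number as a block *Shank2* in neo/neo missed the threshold (adjusted p = 0.0646, and 0.0854 with GC and length trends also removed). It also missed without +/+ replicate 3, +/- replicate 1 or 2, neo/neo replicate 1 or 2 or neo/- replicate 1 or 2, while 4 scaffold genes passed without neo/neo replicate 3. In neo/- *Shank2* missed in the second run alone and without +/- replicate 1, neo/- replicate 1 or neo/- replicate 2. Against +/-, *Dlgap2* had log2 fold changes of -0.18 ± 0.11 in neo/neo (adjusted p = 0.370) and -0.35 ± 0.11 in neo/- (adjusted p = 0.0888).

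The scaffold genes did not differ detectably between the hypomorphs. In neo/- against neo/neo, no scaffold gene passed in edgeR or DESeq2 and none had an unadjusted p under 0.05, while 0.0159% of all genes passed in edgeR. Of all 18810 genes, 1585 had an unadjusted p under 0.05. The log2 differences ran from -0.17 ± 0.11 for *Dlgap2* to 0.0034 ± 0.051 for *Dlgap4*, with a median of -0.068. For *Dlg4* the difference was -0.0025 with bounds of -0.12 and 0.11, and for *Shank2* it was -0.070 with bounds of -0.20 and 0.055.

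Neuronal transcripts were also lower in the hypomorphs. Of 10 neuronal markers, 3 fell in neo/neo (*Map2*, *Snap25* and *Dcx*) and 2 in neo/- (*Map2* and *Dcx*), none rose, and none changed in +/- (edgeR; 0 with an unadjusted p under 0.05 and 0 by DESeq2). Of all genes, 4.45% passed as lower in neo/neo and 5.99% in neo/-. DESeq2 called 5 of the 10 markers in neo/neo and 2 in neo/-. The markers summed to 3537 to 4222 CPM in +/+, 3660 to 4264 in +/-, 2895 to 3406 in neo/neo and 3229 to 3638 in neo/-, with none of the 10 at 0. Their medians of log2 fold change were -0.33 in neo/neo and -0.15 in neo/-, beside -0.22 and -0.26 for the scaffold genes. All 10 markers had negative log2 fold changes in neo/neo, as had 9 of the 10 in neo/-. The neo/neo sums lay below all +/+ sums, while the neo/- sums overlapped them. In neo/- against neo/neo none of the 10 markers had a negative log2 difference (median 0.15). Of the 9 scaffold genes, 8 had one (median -0.068). No marker and no scaffold gene had an unadjusted p under 0.05 there. The markers' part in the result was not tested. Of 8 progenitor markers, 2 rose in neo/neo (*Pax6* and *Sox2*, with 4 called by DESeq2) and none passed in neo/- in edgeR (1 with an unadjusted p under 0.05, 0 by DESeq2). Of all 18810 genes, 697 passed as higher in neo/neo and 1031 in neo/-. Of 6 ventral markers, *Gad1* fell in both hypomorphs and all 6 had negative log2 fold changes in both (median -0.22 in each). They summed to 632 to 652 CPM in +/+, 534 to 654 in +/-, 533 to 589 in neo/neo and 473 to 590 in neo/-, so that neither hypomorph overlapped +/+, and their part in the result was not tested. Red cell markers summed to 3962 to 6294 CPM in neo/- against 2865 to 3508 in +/+, with 2 of 5 called higher, and their part was not tested either.

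**Figure D4:**
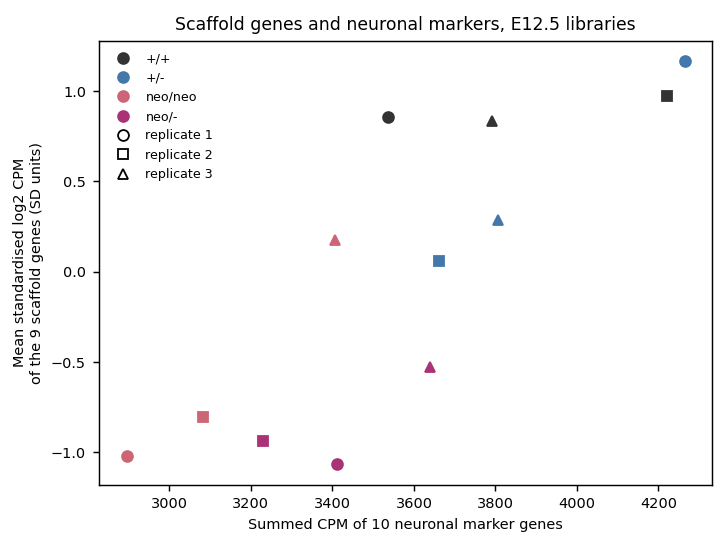
Each point is 1 E12.5 library, with the summed CPM of 10 neuronal markers on the x axis and the mean of the 9 scaffold genes' log2 CPM, each standardised over the 12 libraries, on the y axis. The +/+ libraries lie at 0.837 to 0.972 SD units and the neo/- libraries at -1.07 to -0.529, while neo/neo replicate 3, at 0.175, lies above the other neo/neo libraries on both axes.

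The 5 genes whose log2 CPM followed the mean scaffold level most closely over the 12 E12.5 libraries were *Agap2* (Pearson r = 0.980), *Syn3* (r = 0.979), *Dscam* (r = 0.978), *4931428F04Rik* (r = 0.976) and *Nrxn2* (r = 0.976). They were the highest on this measure among tested genes averaging at least 10 counts per library, the libraries share genotype groups, and no test was made. *Syn3* encodes a synapsin of the presynaptic side, *Nrxn2* a neurexin that pairs with postsynaptic neuroligins, and *Dscam* a neuronal adhesion molecule. *Syn3* spanned 11.1 to 11.7 CPM in +/+, 7.54 to 9.80 in neo/neo and 7.32 to 8.66 in neo/-.

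At E10.5 none of the 9 scaffold genes passed in cKO against Ctrl, although 11.4% of the 18435 genes tested did. By unadjusted p under 0.05 there were 2, *Shank1* and *Shank2*, beside 5049 of the 18435 genes tested, and DESeq2 called none. The median log2 fold change of the 9 was 0.020 against -0.0019 for all genes, with 4 genes negative and 5 positive. *Shank2* was at 8.66, 10.2 and 8.68 CPM in Ctrl and at 11.2, 10.9 and 10.8 CPM in cKO, higher in every cKO library (log2 fold change 0.25 ± 0.096, edgeR adjusted p = 0.113). *Shank1* was at 9.33, 12 and 11.3 CPM in Ctrl and at 9.56, 9.10 and 8.40 CPM in cKO, where 1 cKO library lay within the Ctrl range (-0.27 ± 0.11, adjusted p = 0.138). Among all genes, 15.7% were higher and 16.6% lower without overlap, and among the 9 there was 1 of each (*Shank2* and *Dlgap1*).

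The receptor anchor *Dlg4* stood at 46.0, 49.4 and 48.7 CPM in Ctrl and at 46.9, 41.7 and 42.9 CPM in cKO (log2 fold change -0.13 ± 0.067, edgeR adjusted p = 0.227). *Dlgap4* (0.11 ± 0.066, adjusted p = 0.293), *Shank3* (0.16 ± 0.10, adjusted p = 0.338) and *Homer1* (0.034 ± 0.080, adjusted p = 0.828) did not pass either. *Dlgap3* (0.020 ± 0.14), *Dlgap1* (-0.22 ± 0.22) and *Dlgap2* (-0.019 ± 0.34) had errors about as wide as or wider than the estimates. With GC and length trends removed *Shank1* passed (adjusted p = 0.0211), as it did without Ctrl replicate 1 (0.0451), and *Shank2* passed without Ctrl replicate 2 (0.0416). Neuronal markers summed to 208 to 377 CPM in Ctrl and 242 to 332 CPM in cKO, with Ctrl replicate 2 lowest. Markers of mesenchyme and meninges summed to 366 to 399 CPM in cKO against 250 to 319 CPM in Ctrl. Macrophage markers summed to 18.2 to 20.4 CPM in cKO against 13.8 to 16.6 CPM in Ctrl. The sums of the other marker lists overlapped, and their part in the result was not tested.

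The wider postsynaptic set was followed in 38 further genes. In +/- none passed (edgeR; 2 with an unadjusted p under 0.05, 0 by DESeq2). In neo/neo 8 of 38 fell and none rose, the median log2 fold change of the list being -0.18. In neo/- 6 of 38 fell and none rose, with a median of -0.16. In cKO 34 genes were tested, of which 3 rose and 3 fell, with a median of 0.052, beside 11.4% of all genes that passed. The 6 became 2 without Ctrl replicate 3, cKO replicate 2 or cKO replicate 3. The share of genes lower in the hypomorphs can be read against the 4.45% and 5.99% of all genes given above.

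Of the adhesion proteins that face the presynaptic side, *Nlgn3* (neuroligin 3) fell in neo/neo (log2 fold change -0.47 ± 0.075, edgeR adjusted p = 0.00372) and in neo/- (-0.38 ± 0.075, adjusted p = 0.00580), under all 22 alternatives in both. *Lrrtm2*, another organiser of the synapse, fell in neo/neo (-0.41 ± 0.12, adjusted p = 0.0410) and in neo/- (-0.47 ± 0.12, adjusted p = 0.0185), but passed in 10 and 18 of the 22 alternatives. The other 3 adhesion genes did not pass. Among 9 glutamate receptor genes, all 9 had negative log2 fold changes in both hypomorphs, and the median was -0.60 in neo/neo and -0.35 in neo/-. In neo/neo 2 of the 9 fell, *Gria3* (-0.36 ± 0.075, edgeR adjusted p = 0.0123) among them, where 4.45% of all genes passed as lower. There 7 of the 9 had an unadjusted p under 0.05, and DESeq2 called 6. None of the 9 passed in neo/- in edgeR (5 had an unadjusted p under 0.05, and DESeq2 called 2). Of all 18810 genes tested, 4746 had an unadjusted p under 0.05 in neo/neo and 4991 in neo/-.

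The closest relatives of the scaffold genes differed from them in part. *Homer2*, the paralog of *Homer1*, fell in neo/neo (log2 fold change -0.25 ± 0.054, edgeR adjusted p = 0.0140) and in neo/- (-0.24 ± 0.054, adjusted p = 0.0129). With GC and length trends removed *Homer2* missed the threshold in both, at -0.17 (adjusted p = 0.0791) and -0.13 (adjusted p = 0.172). *Homer3* had values of 0.11 ± 0.056 and -0.013 ± 0.056. No test set one paralog against the other. Of the *Dlg4* paralogs, *Dlg2* fell in neo/neo (-0.67 ± 0.18, adjusted p = 0.0447), *Dlg3* had -0.072 ± 0.036 and -0.078 ± 0.036, and *Dlg1*, which is also a polarity protein of dividing cells, had -0.011 ± 0.058 and -0.14 ± 0.058. *Dlgap5*, the family member that serves the mitotic spindle, had 0.15 ± 0.045 in neo/neo (adjusted p = 0.0554) and 0.081 ± 0.045 in neo/-.

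Among signalling and linker genes, *Agap2*, a GTPase of receptor complexes, fell in neo/- (log2 fold change -0.65 ± 0.14, edgeR adjusted p = 0.0170), as did *Kalrn*, which shapes spines (-0.18 ± 0.044, adjusted p = 0.0195), and *Dynll2* (-0.14 ± 0.043, adjusted p = 0.0485), a dynein light chain that DLGAP proteins bind. With GC and length trends removed *Kalrn* was at -0.038 (adjusted p = 0.595), and *Dynll2* passed in 9 of the 22 alternatives. *Camk2a* (-0.27 ± 0.077, adjusted p = 0.0451) and *Lin7c* (-0.17 ± 0.045, adjusted p = 0.0327) fell in neo/neo. *Lin7c* passed in 14 of the 22 alternatives and missed with GC and length trends removed (edgeR adjusted p = 0.0862). For the 38 genes, the neo/neo count of 8 became 15 with DESeq2, 3 with only the groups compared and 5 with the sex-linked covariate or GC and length trends removed, and the neo/- count of 6 became 11 with only the groups compared and 3 in the first run alone. The neo/neo count was 18 without neo/neo replicate 3, 1 without +/+ replicate 2 or neo/neo replicate 2, 3 without +/+ replicate 3 or neo/neo replicate 1 and 5 without +/- replicate 3 or neo/- replicate 1. The neo/- count was 11 without neo/neo replicate 3, 1 without neo/- replicate 1 and 3 without +/+ replicate 3 or neo/- replicate 2.

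In cKO the wider set moved both ways. *Gria3*, an AMPA receptor subunit, rose (log2 fold change 1.04 ± 0.13, edgeR adjusted p = 0.00104), and so did *Iqsec1* (0.34 ± 0.070, adjusted p = 0.0133) and *Dbn1*, the actin-binding protein drebrin (0.23 ± 0.055, adjusted p = 0.0222). *Dlg1* (-0.31 ± 0.060, adjusted p = 0.00999), *Gria2* (-0.87 ± 0.20, adjusted p = 0.0189) and *Agap2* (-0.46 ± 0.12, adjusted p = 0.0273) fell. *Gria3* passed under all 14 alternatives, *Dlg1* and *Iqsec1* under 12, *Gria2* under 10, *Dbn1* under 9 and *Agap2* under 8. *Gria3*, lower in neo/neo at E12.5, was thus higher in cKO at E10.5, in different alleles and stages, and that difference was not tested.

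**Figure D5:**
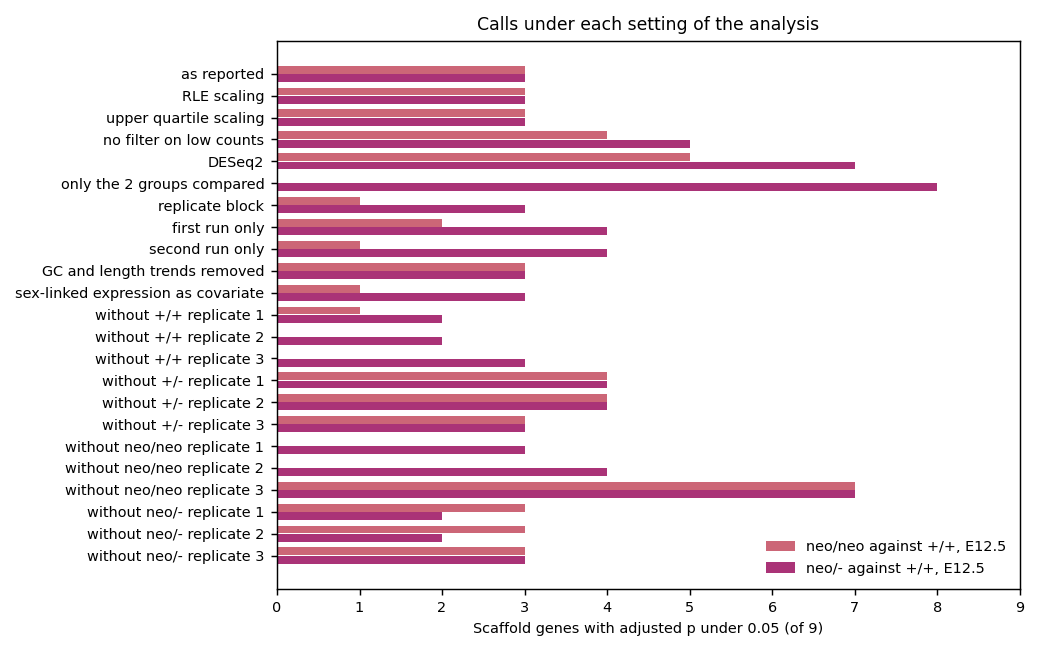
Number of the 9 scaffold genes with an adjusted p under 0.05 for neo/neo and neo/- against +/+ under each setting of the analysis. The neo/neo count ran from 0 to 7 and the neo/- count from 2 to 8, and the highest neo/neo count came without neo/neo replicate 3.

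Counting bears on some genes. The E12.5 counting command had no strand option although the libraries were stranded, so reads of antisense genes cannot be told apart from those of the gene they overlap. *Shank3* shares 271 exon bases with *Gm15609* and *Dlgap4* shares 24 with *4930405A21Rik*, both on the other strand, whose own counts reached 16 and 35 at E12.5. The other 7 genes share no exon base with another gene. Gene counts also do not separate the short, activity-induced form of *Homer1* from its long scaffold form, or the products of internal *Shank* promoters.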

How the data were processed

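Per the labels and the study's methods, the authors trimmed paired reads with Trim Galore 0.4.1, aligned them with TopHat2 2.1.0 to mouse GRCm38, counted fragments per gene with featureCounts 1.5.0 on Ensembl release 82 annotation at E12.5 (not given for E10.5), and deposited raw counts per gene and run, without filtering or pooling. Here the 2 runs of each library were summed, and 46005 of 46603 identifiers matched a symbol. Counts were filtered with filterByExpr defaults, scaled by TMM and tested with edgeR 4.0.16 (robust quasi-likelihood, R 4.3.3), with the 12 E12.5 libraries in 1 fit on genotype and the 6 E10.5 libraries in another. P-values were adjusted by Benjamini-Hochberg over 18810 and 18435 genes, with calls at an adjusted p under 0.05. The fits were tested on simulated data.

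CPM and RPKM used TMM library sizes and the exon length of the count tables. Replicates of a group came from different litters, per the study's methods. Total counts limit precision most for *Dlgap1* and *Dlgap2*. The genes named are the 9 scaffold genes, *Chd8*, the called genes of the 38 further postsynaptic genes (at most 6 per control comparison by adjusted p), and the 5 genes closest to the mean scaffold level among those with a mean of at least 10 counts per library. *Dlg2* and *Camk2a*, beyond those 6, *Dlg1*, *Dlg3*, *Homer3*, *Dlgap5* and the marker genes were named after their values were seen. Results of 2 listed genes are not reported here. The scaffold genes, lists and alternatives were chosen with earlier results of these data known. Alternatives were DESeq2 1.42.0, RLE and upper quartile scaling, no filter, only the groups compared, a replicate block, each run alone, GC and length trends removed by loess (span 0.5), a sex-linked covariate, and each library left out. Deviations of same-numbered +/- and neo/neo libraries had correlations of 0.108 to 0.199, so these were taken as paired from the data alone. In no other comparison were all 3 over 0.1. Figures used matplotlib 3.10.9.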

Additional observations from a re-analysis of the deposited data

Results flagged for a closer look

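*Shank2* lay on opposite sides of the controls at the 2 stages, with only the E12.5 values past the threshold. Every neo/neo and neo/- library lay below every +/+ library at E12.5 (log2 fold change -0.25 and -0.32), and every cKO library lay above every Ctrl library at E10.5 (0.25, not past the threshold). Among all genes, 13.5% in neo/neo and 16.9% in neo/- were lower without overlap, and 15.7% were higher without overlap in cKO. Alleles, stages and count tables differ between these comparisons, and the difference was not tested.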

How the results depend on the processing

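The number of the 9 scaffold genes called in +/- against +/+ and in neo/- against neo/neo was 0 under every alternative. In neo/neo against +/+ the 3 became 5 with DESeq2, 0 with only the groups compared and 1 with the replicate block or the sex-linked covariate (*Dlgap2*) or the second run alone (*Dlgap1*, none of the 3), and 0 to 7 as libraries were left out. In neo/- against +/+ the 3 became 5 with no filter, 7 with DESeq2 and 8 with only the groups compared, and 2 to 7 as libraries were left out. The number of all genes called changed too. In neo/neo they were 2285 of 13757 with DESeq2, 430 of 18313 with only the groups compared and 1005 of 18810 with the sex-linked covariate. In neo/- they were 1949 of 31449 with no filter, 2603 of 14366 with DESeq2 and 2687 of 18268 with only the groups compared. In neo/neo against +/- the 1 became 0 with only the groups compared, the replicate block, the second run alone, the sex-linked covariate, and GC and length trends removed with or without the block, and 0 to 4 as libraries were left out. In neo/- against +/- it became 2 with DESeq2, 0 with the second run alone, and 0 to 2 as libraries were left out. In cKO the 0 became 1 with GC and length trends removed, and 0 to 1 as libraries were left out. The replicate numbers were taken to pair libraries only for neo/neo against +/-, and the block gave 3 genes in neo/- against +/+, 0 in cKO and, of the 38 other postsynaptic genes, 5 in neo/neo against +/+.

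Signs turned only for values near 0 that were not called. In +/- against +/+, *Shank2* was -0.0063 with upper quartile scaling and -0.0022 in the second run (-0.062 to 0.048 as libraries were left out), *Dlgap1* was -0.056 in the second run (-0.18 to 0.23), and *Dlgap3* was -0.0079 with upper quartile scaling, -0.0011 with no filter and -0.041 in the second run (-0.072 to 0.047). *Homer1* was 0.0090 in the second run and 0.059 with GC and length trends removed in neo/neo (-0.073 to 0.0096), and 0.022 with these trends removed in neo/-. In cKO, *Dlgap2* was 0.026 with the replicate block and 0.16 in the first run (-0.32 to 0.40), *Dlgap3* was -0.13 in the second run and -0.061 with GC and length trends removed (-0.053 to 0.16), and *Homer1* ran from -0.032 to 0.11 as libraries were left out. The causes were not tested. Low counts limit *Dlgap1* and *Dlgap2* at E10.5.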
